A study of Canis lupus familiaris with 51 samples.

Results

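The 3 hemangiosarcomas labelled as liver tumours were compared with the 32 labelled as spleen tumours, and the 11 labelled as heart tumours served as a further reference. They were picked by the tissue label alone and make up 3 of the 51 dog tumours in the series, in which RNA was sequenced from each tumour. Liver 1 came from an intact female Portuguese Water Dog of 10.0 years, liver 2 from a neutered female Golden Retriever of 9.6 years and liver 3 from a neutered female Wolf Mix of 10.9 years. Of the dogs with spleen tumours 16 were female and 16 male, 20 were Golden Retrievers and 20 were neutered, and ages were 3.0 to 13.6 years. Their other breeds were Portuguese Water Dog, Keeshond, German Shepherd Dog, Bullmastiff, Gordon Setter, Boxer, Labrador Retriever and Briard. The heart tumours came from 3 females and 8 males, 6 of them Golden Retrievers and 6 neutered, aged 5.9 to 11.2 years. Their other breeds were Border Collie Mix, Bernese Mountain Dog, Portuguese Water Dog, Labrador Retriever and Saluki. Sample titles begin with CHAD for 5 spleen tumours and 1 heart tumour, and with DHSA for the rest, including all liver tumours. The meaning of these prefixes is not given here. No treatment is given for any group, and the other 5 tumours carry labels held by 1 tumour each. Whether every sample is its own dog is not said in the labels, and the p-values describe only how these samples vary.

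Hemangiosarcoma is a malignant tumour of cells related to the lining of blood vessels. In dogs it is found most often in the spleen, the heart and the liver, and a liver tumour may be a primary growth or a deposit from another site; the labels do not say which applies here. Liver and spleen both carry wide, leaky blood channels (sinusoids) lined by specialised endothelium, and the host organ contributes its own cells to a tumour sample. Hepatocytes, the main cells of liver, secrete albumin, clotting factors and other plasma proteins, while spleen is rich in blood cells and lymphocytes. Fewer cells of a type and less RNA per cell cannot be told apart in such bulk samples. The genes carry Ensembl identifiers that the files do not pair with symbols, and 0 of the 16382 were found in the symbol table used here, so the liver label could not be checked against hepatocyte genes and no cell type list was scored.

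The liver libraries were of ordinary depth and complexity for the series. Values are FPKM, fragment counts scaled for the length of the transcript and for the library, by a library scaling that is not given here. Depth relative to the median library was solved from the steps between low FPKM values. It was 1.23 in liver 1, 1.03 in liver 2 and 1.44 in liver 3, within the spleen range of 0.526 to 2.134. Genes at 1 FPKM or more numbered 10877, 11275 and 11150 in livers 1, 2 and 3, a mean of 11101 ± 204 (SD, n = 3) against 11201 ± 227 in spleen (SD, n = 32) and 11214 ± 283 in heart (SD, n = 11). Genes at 100 FPKM or more numbered 938, 1096 and 782, a mean of 939 ± 157 against 902 ± 125 in spleen and 895 ± 73.8 in heart. The 10 most abundant genes took 4.91%, 8.81% and 5.25% of the summed FPKM, against 4.51% to 29.96% in spleen. None of these measures differed beyond the spread between tumours (6 two-sided exact permutation tests, p from 0.383 to 0.674, each with an adjusted p of 0.674; the smallest p the design allows is 0.000153 against spleen and 0.00275 against heart). On the genes at 100 FPKM or more, liver 2 alone put the liver mean above the references: without it the difference was -41.6 genes against spleen and -34.7 against heart.

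No single gene passed the test between liver and spleen. The 12887 genes tested had 1 FPKM or more in 3 or more of the 46 tumours, and limma on log2(FPKM + 1) called 0 (0.0%) at an adjusted p under 0.05. Before adjustment, p was under 0.05 for 472 genes higher in liver (3.66%) and 306 lower (2.37%), together 6.04% of those tested. The log2 fold changes had a median of -0.04, and the middle of the distribution was narrow, with quartiles of -0.26 and 0.20. A difference of at least 1 on this scale was seen in 313 genes higher in liver (2.43%) and 306 lower (2.37%), and 213 of these genes (1.65%) also had an unadjusted p under 0.05. For most genes with a difference of at least 1, the spread between tumours was therefore too wide for the unadjusted threshold. All 3 liver tumours lay above the spleen median in 1430 genes (11.1%) and below it in 1910 (14.8%), counts that were not tested. The liver dogs were all female. With sex as a covariate limma called 0 genes, and 1028 of 12887 had an unadjusted p under 0.05. In female dogs only it also called 0, with 1125 of 12400 under that threshold.

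The tested genes were also split by their mean level in spleen. The counts by p and by size went the same way under 1 FPKM and from 10 to 100 FPKM, but not in the other bands. Among 1075 genes with a spleen mean under 1 FPKM, 60 were higher and 4 lower at an unadjusted p under 0.05 (5.95%), on a scale where a gene near 0 can hardly go lower, and the median log2 fold change was -0.06. Among 948 genes over 100 FPKM, 29 were higher and 5 lower by that p (3.59%), but 29 were at least 1 higher and 30 at least 1 lower on the log2 scale, and the median log2 fold change was 0.02. The 6768 genes between 10 and 100 FPKM were split as 255 higher and 205 lower (6.8%), and the 4096 genes between 1 and 10 FPKM as 128 and 92 (5.37%). By a size of at least 1, the split was 177 higher and 168 lower between 10 and 100 FPKM. It was 90 and 108 between 1 and 10 FPKM, and 17 and 0 under 1 FPKM.

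**Figure D1:**
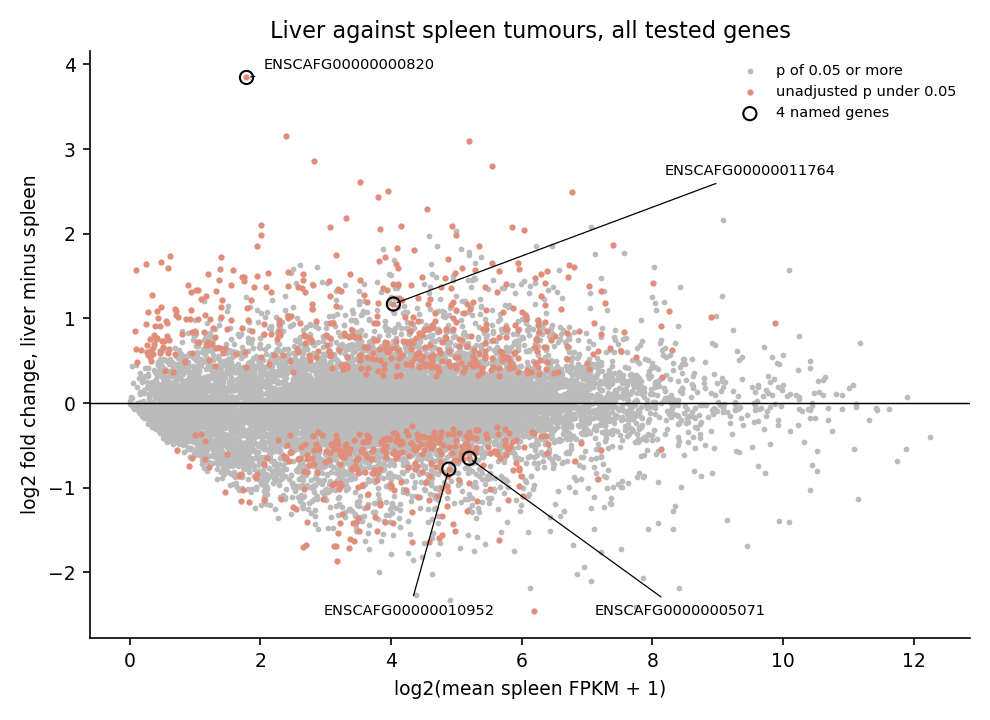
Log2 fold change of liver minus spleen on the log2(FPKM + 1) scale (vertical) against log2 of the mean spleen FPKM + 1 (horizontal) for 12887 tested genes. Each point is a gene, orange marks an unadjusted p under 0.05, and circles mark the 4 named genes; most points lie near 0, with quartiles of -0.26 and 0.20.

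The gene with the smallest p was ENSCAFG00000011764, which was higher in liver. It stood at 52.2 FPKM in liver 1, 24.1 in liver 2 and 33.1 in liver 3, against a spleen minimum of 8.66, median of 15.3 and maximum of 28.1 FPKM. Livers 1 and 3 lay above each of the 32 spleen tumours, and 1 spleen tumour, spleen 30, lay above liver 2. Heart tumours ran from 7.39 through a median of 14.2 to 24.96 FPKM, with 1 of 11 above liver 2. The log2 fold change was 1.17 ± 0.24 against spleen (SE, limma adjusted p = 0.078) and 1.25 ± 0.25 against heart (SE, limma adjusted p = 0.0504), so the gene missed the threshold in both. In a fit of liver and spleen tumours alone, its limma adjusted p was 0.174. The liver dogs were all female, and in the 16 female spleen tumours the median was 16.1 and the range 11.2 to 28.1 FPKM.

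ENSCAFG00000000820 had the largest fold change of all genes tested, and it was set mainly by 1 tumour. Its level was 4.40 FPKM in liver 1, 530 in liver 2 and 11.8 in liver 3. In spleen it ran from 0 through a median of 0.741 to 17.7 FPKM, and in heart from 0 through 1.78 to 13.8 FPKM. Liver 2 lay above every spleen and heart tumour, at 715 times the spleen median, while 5 spleen tumours lay above liver 1 and 2 above liver 3. The log2 fold change against spleen was 3.85 ± 0.80 (SE, limma adjusted p = 0.078), and against heart 3.32 ± 0.87 (SE, limma adjusted p = 0.394). These SEs pool the spread within all 3 groups, in which spleen and heart tumours outnumber the liver tumours. Without liver 2 the log2 fold change against spleen was 1.85 (limma adjusted p = 0.883).

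Of the genes lower in liver, ENSCAFG00000005071 separated the groups completely. It was at 19.4, 24.1 and 22.7 FPKM in livers 1, 2 and 3, against 25.9 to 50.1 FPKM in spleen with a median of 35.1. Heart tumours lay higher still, at 32.5 to 45.95 FPKM with a median of 38.6. The 3 liver tumours were thus below all 43 tumours of the other organs, with little spread among themselves (22.1 ± 2.39 FPKM, SD, n = 3). The log2 fold change was -0.65 ± 0.14 against spleen (SE, limma adjusted p = 0.078) and -0.78 ± 0.16 against heart (SE, limma adjusted p = 0.0504).

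ENSCAFG00000010952 was lower in liver by a similar amount but more unevenly. It was at 23.1, 8.72 and 19.7 FPKM in livers 1, 2 and 3, and at 21.2 to 42.2 FPKM in spleen with a median of 27.7. Livers 2 and 3 lay below every spleen tumour, and 1 spleen tumour lay below liver 1. All 11 heart tumours, at 25.3 to 43.1 FPKM with a median of 30.3, were above the 3 liver tumours. The log2 fold change was -0.78 ± 0.17 against spleen (SE, limma adjusted p = 0.078) and -0.93 ± 0.19 against heart (SE, limma adjusted p = 0.0504), and without liver 2 it was -0.38 against spleen (limma adjusted p = 0.889).

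**Figure D2:**
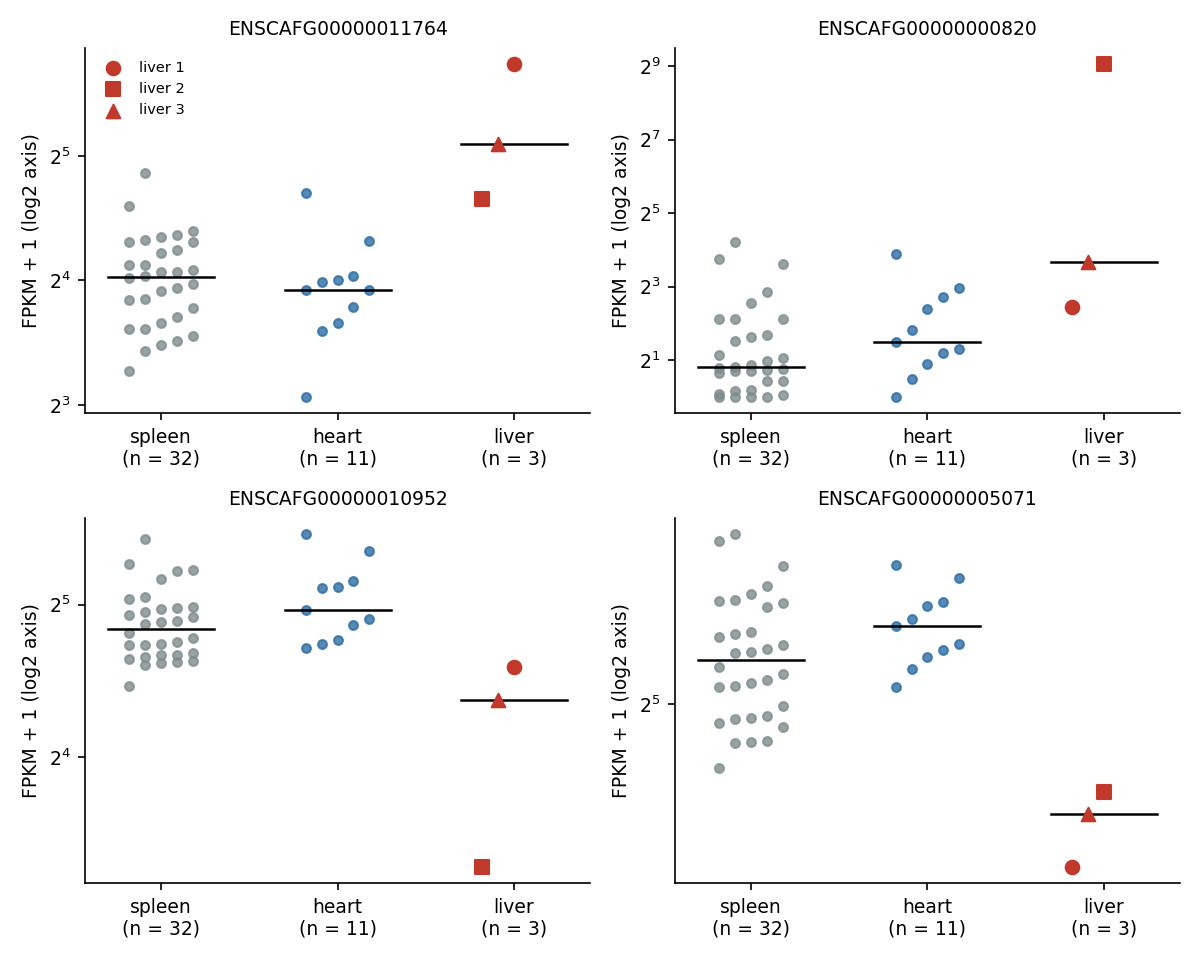
FPKM + 1 (vertical, log2 axis) of the 4 named genes in each spleen, heart and liver tumour; points are tumours, liver tumours have their own symbols, and bars mark group medians. ENSCAFG00000005071 is the gene whose 3 liver tumours (19.4 to 24.1 FPKM) lie below all spleen and heart tumours, and ENSCAFG00000000820 reaches 530 FPKM in liver 2 alone.

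The 20 genes with the smallest p in each direction, the 4 named genes among them, differed in size and in which tumour carried them. The 20 higher genes had log2 fold changes of 0.55 to 3.85 with a median of 1.31 (limma adjusted p from 0.078 to 0.167). The 20 lower genes had smaller ones, from -1.36 to -0.47 with a median of -0.67 (limma adjusted p from 0.078 to 0.49). Among the higher genes, livers 1, 2 and 3 lay above every spleen tumour in 9, 11 and 12 genes. Among the lower genes, they lay below every spleen tumour in 4, 15 and 6 genes, and liver 2 was the farthest of the 3 from the spleen median in 13 of 20. These genes were ranked on the same values, so the counts only describe them.

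Heart as the reference gave a similar picture. Between liver and heart limma called 0 of 12887 genes (0.0%), and 693 (5.38%) had an unadjusted p under 0.05, 343 higher (2.66%) and 350 lower (2.72%) in liver. All 3 liver tumours lay above all 11 heart tumours in 41 genes (0.318%) and below them in 48 (0.372%). The same complete separation from the 32 spleen tumours was seen in 2 genes above (0.0155%) and 1 below (0.00776%), which is a stricter demand because spleen has more tumours. The comparisons share the liver tumours.

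Apart from ENSCAFG00000005071, 2 genes separated liver from spleen completely, both higher in liver. They fall outside the rule for printed identifiers and were picked after their values were seen. The first was at 46.3, 32.3 and 26.5 FPKM in livers 1, 2 and 3, against a spleen median of 3.79 and maximum of 26.2 FPKM, with limma giving a log2 fold change of 2.86 ± 0.70 (SE) at an adjusted p of 0.167. Spleen tumours varied widely in this gene, 7 of 32 reaching 10 FPKM, and 1 heart tumour, at 28.4 FPKM, lay above liver 3. The other was at 53.2, 41.9 and 39.4 FPKM, against a spleen range of 22.7 to 39.1, with limma giving a log2 fold change of 0.55 ± 0.14 (SE) at an adjusted p of 0.167. Here too 1 heart tumour, at 41.6 FPKM, lay above liver 3. In both genes liver 3 lay only just above the highest spleen tumour, and none of the 3 separated genes did so by 0.5 on the log2 scale.

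When liver was set against the mean of spleen and heart, which share 1 fit, limma called 3 of 12887 genes (0.0233%), 1 higher and 2 lower in liver. An unadjusted p under 0.05 was found for 664 (5.15%), 383 higher (2.97%) and 281 lower (2.18%). ENSCAFG00000011764 was higher, with a log2 fold change of 1.21 ± 0.24, and ENSCAFG00000010952 and ENSCAFG00000005071 were lower, at -0.86 ± 0.17 and -0.72 ± 0.14 (SE, limma adjusted p = 0.0443 for each). These calls lay close to the threshold. In 61 other settings they were called in 25, 21 and 21, and the direction held in each, with log2 fold changes of 0.92 to 1.46, -1.11 to -0.46 and -0.78 to -0.63. With sex as a covariate, and in female dogs only, limma called 0 genes (805 and 742 at an unadjusted p under 0.05).

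Taken 1 at a time, the liver tumours differed in how many genes lay outside the spleen range. For each tumour, the tested genes outside the range of 31 spleen tumours were counted; for a spleen tumour these are the other 31, and for a liver or heart tumour the count is the mean over leaving out each spleen tumour in turn. Liver 1 had 490 such genes, 262.5 above and 227.5 below, and 18 of 32 spleen tumours had more. Liver 2 had 1391, 711 above and 680.0 below, and 4 spleen tumours had more. Liver 3 had 978, 599 above and 379 below, and 7 spleen tumours had more. The spleen median was 572 (range 67 to 2699) and the heart median 353 (range 158 to 1484), so each liver tumour lay within the range of both.

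**Figure D3:**
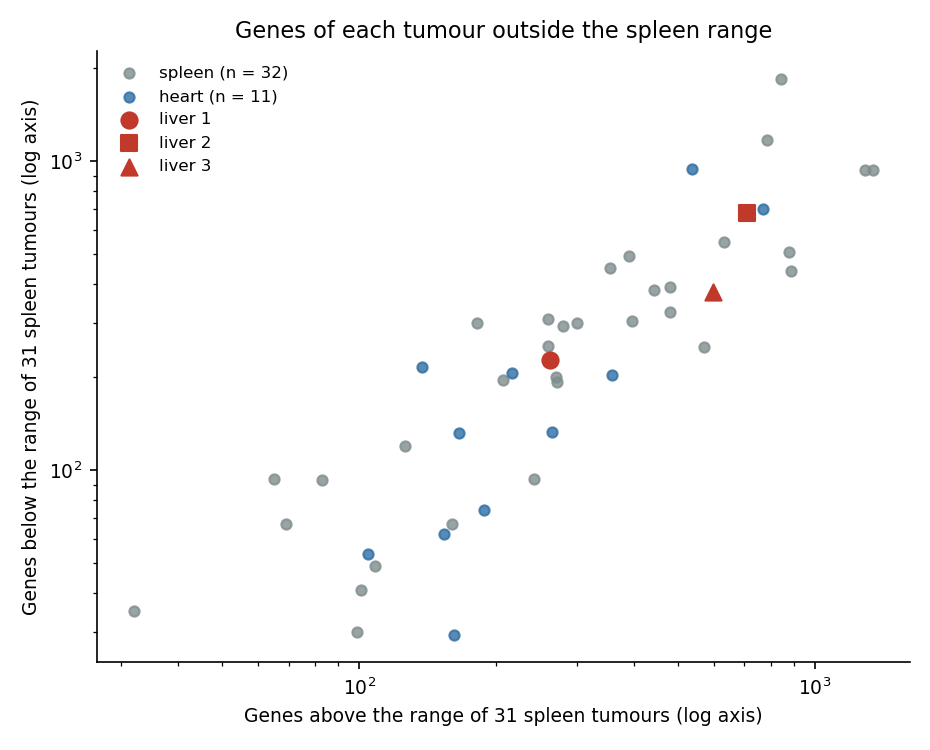
Number of tested genes in each tumour above (horizontal) and below (vertical) the range of 31 spleen tumours, both on log axes; each point is a tumour. Livers 1, 2 and 3, at totals of 490, 1391 and 978 genes, lie among the spleen tumours, whose totals run from 67 to 2699.

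The genes beyond the spleen range were then compared between the liver tumours, with no test of how many would be shared by chance. Against all 32 spleen tumours, 1446 genes were exceeded by at least 1 liver tumour: 1362 by 1 of them, 82 by a pair and 2 by all 3. Liver 2 alone accounted for 642, liver 3 alone for 513 and liver 1 alone for 207. Below the spleen range there were 1178 genes, 1114 in 1 liver tumour, 63 in a pair and 1 in all 3. Above the range the pair of livers 2 and 3 shared 38 genes, livers 1 and 3 shared 30 and livers 1 and 2 shared 14; below it the same pairs shared 25, 11 and 27.

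Whole profiles gave no liver group either. Spearman correlations over the tested genes were 0.889 between livers 1 and 2, 0.906 between livers 1 and 3 and 0.847 between livers 2 and 3. The median over 496 spleen pairs was 0.88, over 55 heart pairs 0.911 and over 96 pairs of a liver with a spleen tumour 0.877. The closest of the other 45 tumours was heart 6 for liver 1 (0.939), spleen 6 for liver 2 (0.912) and spleen 31 for liver 3 (0.934). For livers 1, 2 and 3 the closest liver tumour came 25th, 12th and 9th in that order. These correlations are across genes, which are not independent replicates, and are given without a test.

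Principal components placed the liver tumours at different points. On the first component, with 23.1% of the variance over 46 tumours, livers 1, 2 and 3 scored -43.6, -2.9 and -21.9, inside the spleen range of -51.0 to 77.8. On the second, with 11.2%, they scored -3.7, 43.0 and -40.6: liver 2 had 4 of 32 spleen tumours above it and liver 3 lay below all 32, whose lowest score was -37.6. The spread of the 3 liver tumours on this component covered more than the whole heart range of -18.3 to 28.6.

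**Figure D4:**
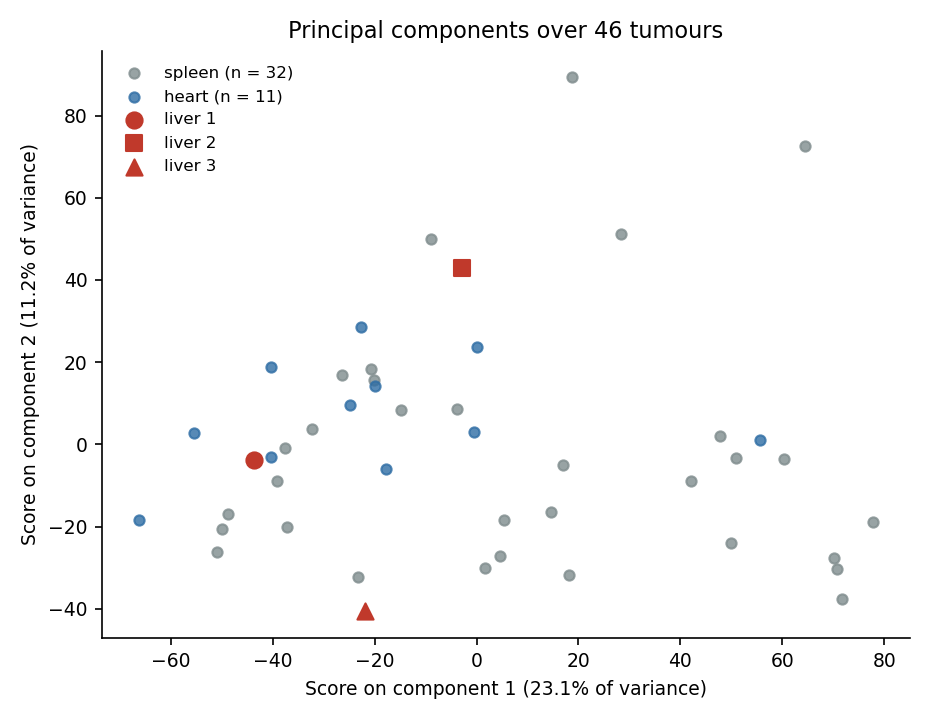
Scores on the first (horizontal) and second (vertical) principal component of log2(FPKM + 1) over 46 tumours; each point is a tumour. The liver tumours are spread along the second component, from -40.6 in liver 3 to 43.0 in liver 2.

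Leaving out a liver tumour changed what was called. Against heart, limma called 8 genes without liver 1, 5 without liver 2 and 0 without liver 3 (894 at an unadjusted p under 0.05). Without liver 2, limma called 17 of 12860 genes against spleen (0.132%), all 17 higher in liver, with log2 fold changes of 0.77 to 3.73. In these genes the median difference from the spleen median was 1.98 in liver 1, 2.46 in liver 3 and -0.09 in liver 2 on the log2 scale. Liver 2 lay below the spleen median in 11 of the 17 and inside the spleen range in 16, while livers 1 and 3 both lay above every spleen tumour in 11 and above every heart tumour in 14. ENSCAFG00000011764 was 1 of the 17. The genes were picked on these tumours, and no gene was called against spleen in the main fit, which includes liver 2. The choice itself therefore favours genes that are high in livers 1 and 3 and near spleen in liver 2. The levels of all 3 are a description.

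Examples from the 17, chosen after their values were seen, give the levels behind these medians. 1 gene was at 75.1 and 143 FPKM in livers 1 and 3 but 11.4 in liver 2, near the spleen median of 14.6; the highest spleen tumour had 48.1 FPKM. Another was at 152 and 71.6 FPKM in livers 1 and 3 and at 26.7 in liver 2, against a spleen median of 28.2 and maximum of 54.3. A gene with 23.98 and 61.5 FPKM in livers 1 and 3 was nearly silent in liver 2, at 0.0517 FPKM, with a spleen median of 1.47. The gene with the smallest p of the 17 was at 3.76, 0 and 13.6 FPKM in livers 1, 2 and 3. The highest spleen tumour had 2.51 FPKM of it. Without liver 2 its log2 fold change was 2.69 ± 0.37 (SE, limma adjusted p = 5.92e-05). With liver 2 in the fit the log2 fold change was 1.67, and the gene missed the threshold (limma adjusted p = 0.0833).

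Without liver 1, limma called 10 of 12883 genes against spleen (0.0776%), 9 higher and 1 lower. Their median differences from the spleen median were 0.15 in liver 1, 1.90 in liver 2 and 1.16 in liver 3, and liver 1 lay inside the spleen range for all 10, which the choice of genes favours in the same way. ENSCAFG00000000820 and ENSCAFG00000010952 were among them, with log2 fold changes of 5.16 ± 0.92 and -1.04 ± 0.20 (SE, limma adjusted p = 0.00683 and 0.00966). A gene at 71.2 FPKM in liver 1, close to the spleen median of 66.1, was at 171 and 393 FPKM in livers 2 and 3. Without liver 3, 1 of 12875 genes was called (0.00777%), at 28.9 FPKM in liver 2 and 0 in livers 1 and 3, and the same gene was among the 10 called without liver 1.

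**Figure D5:**
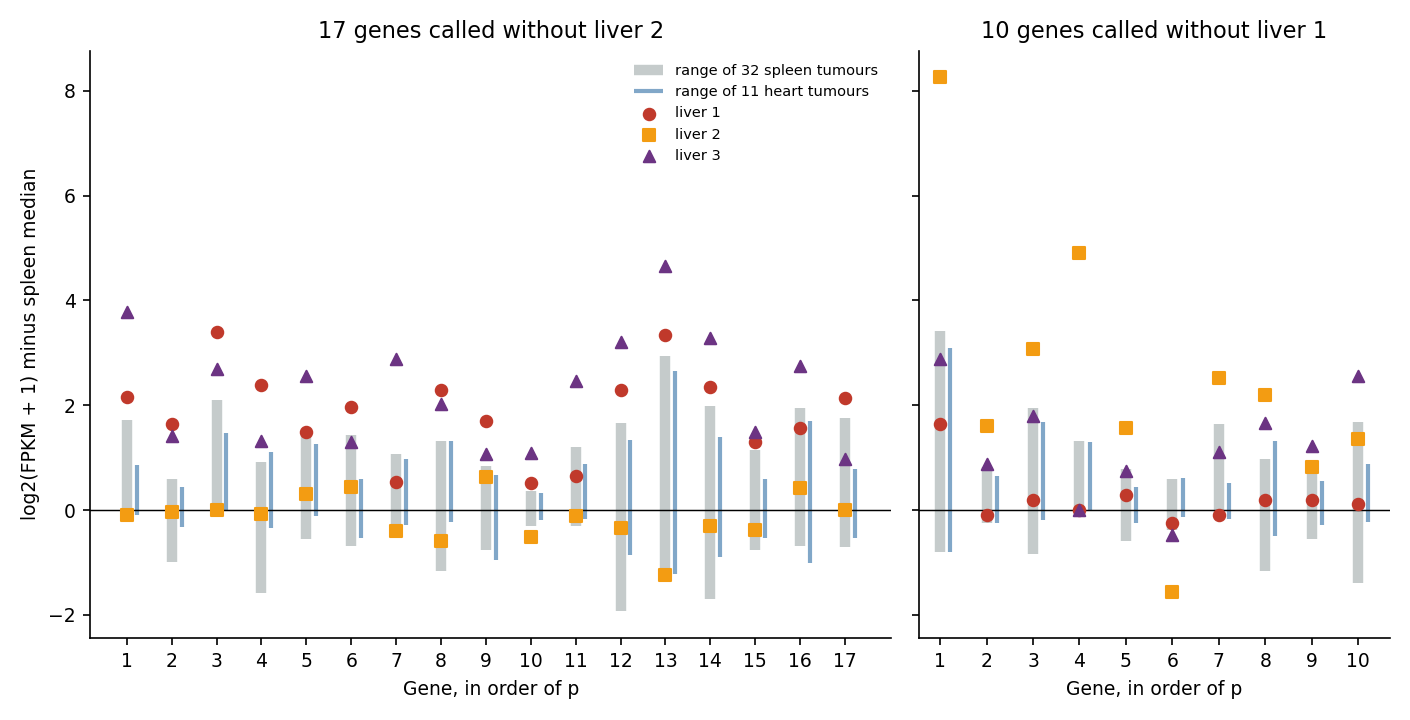
Difference of log2(FPKM + 1) from the spleen median (vertical) for the 17 genes called without liver 2 (left) and the 10 called without liver 1 (right), in order of p (horizontal); symbols are liver tumours and bars are the ranges of 32 spleen and 11 heart tumours. Liver 2 lies inside the spleen range in 16 of the 17 genes and liver 1 in all 10 on the right, as the choice of genes favours.

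The most abundant transcripts also differed between the liver tumours. Of the 10 highest genes in liver 2, 7 lay above every spleen tumour, against 2 in liver 3 and 0 in liver 1, and 2 genes were among the 10 highest in all 3. Over all 12887 tested genes, livers 1, 2 and 3 lay above every spleen tumour in 253, 696 and 583. No such count is given here for the 10 highest genes of spleen or heart tumours. The highest gene of liver 2 stood at 7553 FPKM, against a spleen median of 828 and maximum of 5307. Another of its genes was at 5338 FPKM, against a spleen median of 653 and maximum of 2249. In liver 3, 1 gene stood at 1710 FPKM, against a spleen median of 125 and maximum of 988, and another at 1638 FPKM, against a median of 309 and maximum of 587. The highest gene of liver 1, at 2889 FPKM, was below the spleen median of 3808. The summed FPKM was 696024 in liver 2, against 484725 in liver 1, 435874 in liver 3 and 424488 to 1057712 in spleen. Its part in these levels was not tested.

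Genes near 0 in spleen and high in liver were looked for separately. Of all 16382 genes, 57 had a spleen median under 1 FPKM and at least 10 FPKM in a liver tumour. Liver 2 had 33 of them, liver 3 had 18 and liver 1 had 7, while 56 of the 57 reached 10 FPKM in 1 liver tumour only and 0 in all 3. The gene that did so in 2 of them was ENSCAFG00000000820. The same count for each spleen tumour against the other 31 ran from 3 to 185 with a median of 15.5, and for heart tumours from 8 to 35 with a median of 21, and the counts of all 3 liver tumours lay within the spleen range. Only ENSCAFG00000000820 and 1 other gene reached 50 FPKM in a liver tumour, the other at 63.2 FPKM in liver 2 and at 67.5 FPKM in 1 spleen tumour.

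A few of the 57 were nearly confined to 1 liver tumour within spleen and liver. In 3 genes no spleen tumour reached 1 FPKM: 1 was at 39.8 FPKM in liver 2, and the others were at 19.9 and 16.2 FPKM in liver 3. Livers other than the one named had at most 0.123 FPKM of these genes, and the highest heart tumour had 1.07 FPKM. Such genes were not particular to liver. The count, with every other spleen tumour under 1 FPKM, was 0, 1 and 2 in livers 1, 2 and 3. It ran from 0 to 19 in spleen tumours (median 0) and from 0 to 8 in heart tumours (median 1). In liver 1 the highest of its 7 genes reached 31.3 FPKM, against 3.16 FPKM in the highest spleen tumour and 14.1 in the highest heart tumour.

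Liver 2 also held low levels of genes that were very high in the tumour labelled metastatic and in spleens 17 and 27. Of its 33 genes, 18 were at 10 FPKM or more in the metastatic tumour and 10 at 100 FPKM or more, against 1 and 0 of the 7 genes of liver 1 and 0 of the 18 of liver 3. The share of all genes near 0 in spleen that reach these levels in the metastatic tumour is not given here, so the overlap is only described. Over 53 genes at 100 FPKM or more in the metastatic tumour and spleen 27 and under 1 FPKM in the median spleen, a set chosen after the data were seen, the tumour labelled metastatic had a median of 867 FPKM, while spleen 27 had 327 and spleen 17 had 193. They were 0.111 FPKM in liver 1, 3.40 in liver 2 and 0 in liver 3, while the highest median among the other 30 spleen tumours was 6.55 FPKM. Of the 53 genes, 8 were at 10 FPKM or more in liver 2, against 21 in 1 of these other spleen tumours and 6 in a heart tumour. Liver 2 was thus above the other liver tumours in these genes and within the range of the other spleen tumours.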

How the data were processed

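RNA of 51 dog tumours was sequenced, and the authors deposited 1 table of FPKM values with 16382 genes and 1 column per tumour, matched to samples by title. The tools named in the submitters' processing notes are TopHat 1.4.1, Cuffdiff and FastQC 0.11.2, and the build named is CanFam3.1. Annotation, strand setting and library scaling: not given in the sources used here. Fragment counts were not analysed here. Groups follow the tissue labels, and replicate numbers follow sample order and pair nothing.

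Genes that reached 1 FPKM in 3 or more of the 46 spleen, heart and liver tumours were tested on log2(FPKM + 1), a scale that understates the change of low genes. The test was limma 3.58.1 in R 4.3.3 (1 fit over 46 tumours, no covariates, empirical Bayes with trend, Benjamini-Hochberg adjustment, threshold 0.05, two-sided). Values per tumour were compared with exact permutation tests, adjusted over 6. Relative depth was solved from FPKM steps of 1883 low genes, and 100% of pairs of libraries lay within 0.05 (log2) of the solution; with depth known only in relative terms, no counting interval was computed.

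The rule for named genes gave the 2 genes with the smallest p in each direction of liver against spleen. Marker lists for liver, vessel, blood and muscle cells could not be scored for want of symbols. The groups, lists and tests were chosen with earlier results of these data known.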

Additional observations from a re-analysis of the deposited data

Results flagged for a closer look

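Of the 5 tumours outside the comparisons, 2 lay beyond every spleen tumour in a named gene, on the side of the liver tumours. ENSCAFG00000011764 was at 28.1 FPKM (28.13) in the metastatic abdominal mass, just above the highest spleen tumour (28.05). ENSCAFG00000005071 was at 19.2 FPKM (19.19) in the tumour whose histogenic origin is labelled undetermined, below the lowest spleen tumour (25.85) and the lowest liver tumour (19.44). Each label is held by 1 tumour, so neither value was tested.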

How the results depend on the processing

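Liver against spleen gave 0 genes in most settings, 3 without a filter on low values, 11 with array weights, and 1 to 17 without 1 liver tumour (10, 17 and 1 without livers 1, 2 and 3). It gave 1 without spleen 10 or 30, and 0 to 17 over all settings that leave out 1 tumour. With only the groups compared in the fit, 0 genes were called against spleen and 0 against heart. The smallest limma adjusted p was then 0.174 against spleen and 0.319 against heart. Liver against heart gave 4 genes without a filter, 3 with a mean of at least 5 FPKM, 2 with quantile normalization, 3 with robust estimation, 7 with array weights, 1 with breed class as a covariate, 1 in female dogs only and 2 without spleens 17 and 27, a setting added after the data were seen. Leaving out 1 tumour gave 0 to 8, with 8 and 5 without livers 1 and 2, 4 without spleen 5 or 14, 3 without spleen 8, 12, 19 or 30 and 1 without heart 11. Liver against the mean of both organs gave 5 genes without a filter, 1 with median-ratio rescaling, 11 with array weights, 1 with breed class as a covariate, and 0 without a mean trend, with age, sex, or sex and neuter status as covariates, in female dogs only and with DHSA titles only. Leaving out 1 tumour gave 0 to 16: 12, 16 and 1 without livers 1, 2 and 3, 1 without spleen 19 or heart 11, and 0 without any 1 of 18 spleen tumours (1, 2, 3, 4, 6, 7, 8, 9, 12, 13, 16, 18, 21, 24, 26, 28, 31 or 32) or 9 heart tumours (1, 2, 3, 5, 6, 7, 8, 9 or 10). Each fit pools the spread of a gene over all its tumours, most of them from spleen and heart. The SEs and p-values therefore reflect the spread among the liver tumours only in part. This holds with 3 liver tumours and more so with 2.

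Complete separation from spleen, 3 genes, became 0 with a margin of 0.5 on the log2 scale. It became 39 against the 16 female spleen tumours only, and 44 to 66 without 1 liver tumour. In both of these settings fewer tumours had to be separated, which is a weaker demand. The 57 genes near 0 in spleen and high in liver became 138 at 5 FPKM, 2 at 50 FPKM, 3 where no spleen tumour reached 1 FPKM, and 25 to 50 without 1 liver tumour. Leaving out 1 liver tumour turned the difference in genes at 1 FPKM or more against spleen to 11.1 without liver 1 (-188 at the lowest), and that in genes at 100 FPKM or more to -41.6 (spleen) and -34.7 (heart) without liver 2, against 115 and 122 without liver 3. Where no cause is given, the cause was not tested. No paired analysis was possible because the replicate numbers follow sample order. Sequencing depth is known only in relative terms, and 3 liver tumours limit what the test can detect.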

Other observations

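In the 5 tumours outside the comparisons, ENSCAFG00000000820 was at 9.35 FPKM in the abdominal mass and at most 0.214 FPKM in the other four, against 530 FPKM in liver 2. ENSCAFG00000010952 ran from 26.8 FPKM in the metastatic abdominal mass to 39.1 FPKM in the metastatic tumour, so all 5 lay above the 3 liver tumours.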
